A study of Mus musculus with 6 samples.

Results

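Mediator and the CCR4-NOT complex stand at either end of the life of an mRNA, and their subunit genes were followed here through 3 transcription factor peak lists and 1 open chromatin list. Mediator is the large complex that carries signals from DNA-bound factors to RNA polymerase II. Its head and middle regions touch the polymerase, its tail meets activators, a long scaffold subunit joins them, and a separable kinase module controls it. CCR4-NOT shortens the poly(A) tails of mRNAs with a pair of nuclease types and thereby starts their decay. Both complexes act broadly across genes, and several of their subunits are needed for blood cell formation in mice.

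The genes were chosen by name from the peak lists themselves: a gene was taken when any of the 4 lists assigned a peak to a symbol made of Med or Cnot, a number and an optional l. This gave 38 of the 20691 genes named in the lists, 28 of Mediator and 10 of CCR4-NOT. Presence in a list was therefore the criterion, and having a peak is not a finding. Of 41 subunit genes in the standard composition of the complexes, Med19, Med20 and Cnot9 were not named in any list under those symbols. Cnot9 was listed under its older symbol Rqcd1, and its values are given apart from the 38.

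All libraries came from EML cells of strain B6D2F1, a stem cell factor dependent mouse blood precursor line made with a dominant-negative retinoic acid receptor, so this receptor is common to all groups. STAT3 and SOX4 ChIP-seq and ATAC-seq were made from lin-CD34+ cells, and GABPa ChIP-seq from lin-CD34- cells, with 1 library each. The other 2 of the 6 libraries are controls titled input, made with IgG from either population, and no list of theirs was analysed here. GABPa and open chromatin were thus never measured in the same population, and population and antibody cannot be told apart between GABPa and the rest. With 1 library a group no test was possible, and bracketed ranges are exact Clopper-Pearson 95% intervals that cover counting error only. As a check of cell type, 8 of 8 blood stem and progenitor markers (Kit, Cd34, Gata2, Tal1, Lmo2, Runx1, Spi1 and Fli1) had an ATAC interval within 1000 bp of the transcription start site (TSS). So had 5 of 8 markers of other tissues (Myod1, Krt5, Cdh1, Sox2 and Nkx2-1), but not Alb, Neurod1 or Pdx1, so an open promoter alone does not separate cell types here.

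The lists assigned 15 factor peaks to 10 of the 38 genes and 223 distinct ATAC intervals to all 38. Each factor had 5 of the peaks. A peak of some factor at any distance was listed for 26.3% of the subunit genes (13.4 to 43.1), against 22.6% of all genes. Within 1000 bp of a TSS lay 4 of 5 STAT3 peaks (47% of the whole STAT3 list), 2 of 5 GABPa peaks (14% of its list) and 0 of 5 SOX4 peaks (5.31% of its list). The whole lists have the same order, so the order is not particular to these genes. Pooled cells were measured, so a site used in few cells and a weak site in all cells cannot be told apart.

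**Figure D1:**
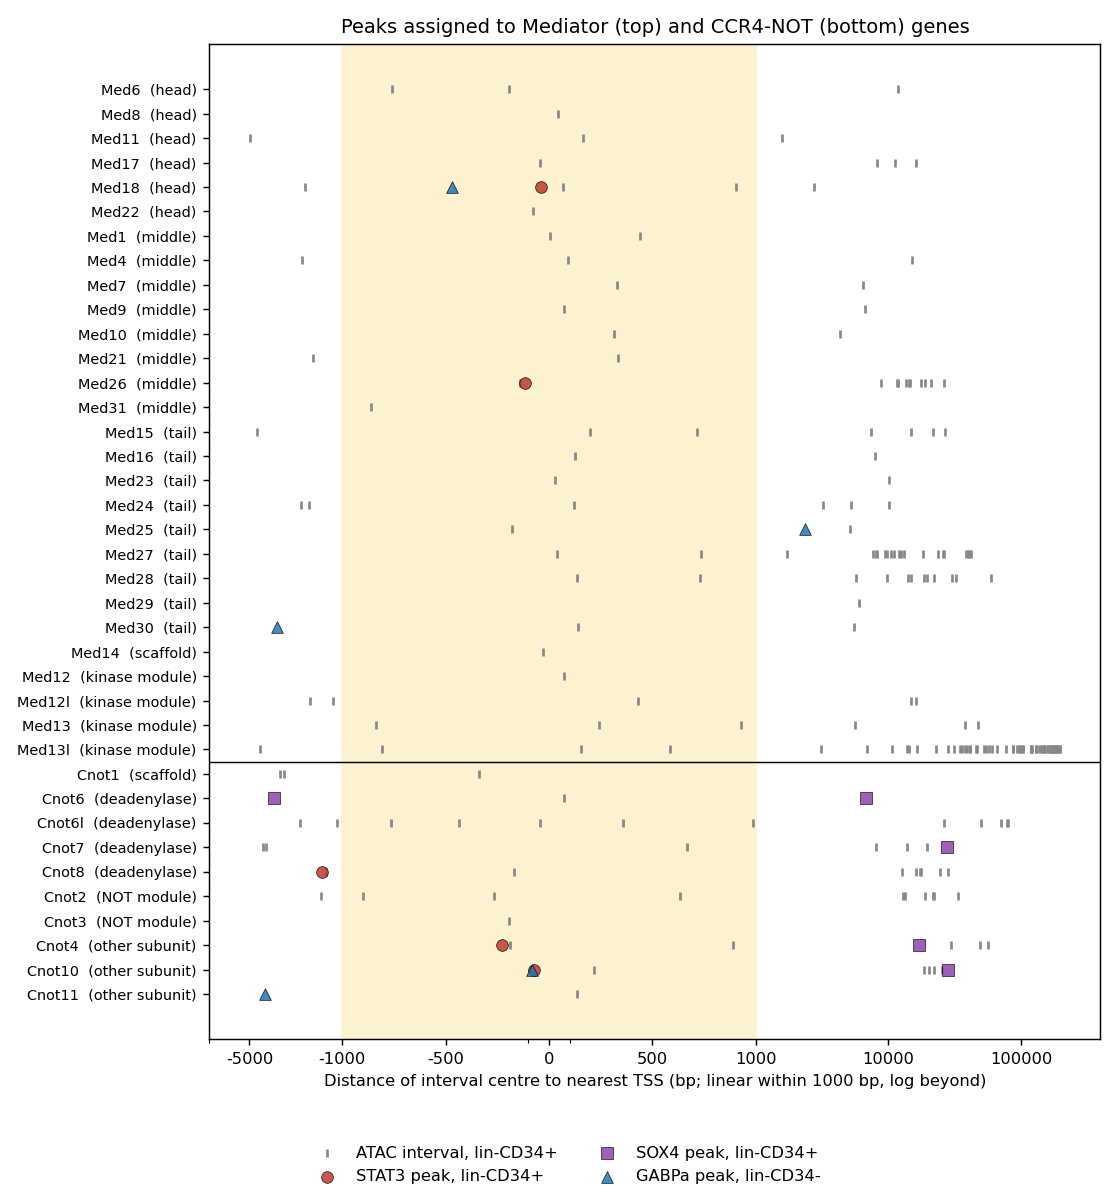
Each row is a gene, Mediator above the line and CCR4-NOT below it, with its role in brackets; the horizontal axis is the signed distance in bp from interval centre to nearest TSS (linear within 1000 bp, log scale beyond), and the shaded band marks 1000 bp on either side. Grey ticks are ATAC intervals, circles STAT3, squares SOX4 and triangles GABPa peaks; 37 of 38 rows hold a tick in the band, STAT3 circles cluster there at 4 genes and all SOX4 squares lie outside it.

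STAT3 peaks were within 1000 bp of the TSS at Med18, Med26, Cnot4 and Cnot10, which is 10.5% of the 38 genes (2.94 to 24.8), against 1.98% of all genes. GABPa peaks lay there at Med18 and Cnot10, 5.26% (0.644 to 17.7), against 1.54%. Both genes were also among the STAT3 genes, so 2 of 38 had a listed peak of each factor (5.26%, 0.644 to 17.7), against 0.251% of all genes. STAT3 was mapped in lin-CD34+ and GABPa in lin-CD34- cells, so binding of both in the same population was not measured. No SOX4 peak lay within 1000 bp of a subunit gene's TSS (0%, 0 to 9.25), against 0.764% of all genes, a share inside that range. Within 5000 bp the genes with a peak were 5 for STAT3 (13.2%, against 2.74% of all genes), 1 for SOX4 (2.63%, against 4.06%) and 5 for GABPa (13.2%, against 3.61%). At any distance STAT3 peaks were assigned to 5 genes (13.2%), against 4.12% of all genes. The promoter sequences of Med18, Cnot10, Cnot4, Med26 and Cnot9 are shown because each overlaps a STAT3 peak described next. Those of Med18 and Cnot10 also overlap a GABPa peak. Each runs 5′ to 3′ on the gene's strand from 250 bases before to 50 bases after the RefSeq gene start (GRCm38.p6, the assembly named mm10), and capitals mark CCGGAAG on either strand, a core bound by ETS factors such as GABPa.
Med18: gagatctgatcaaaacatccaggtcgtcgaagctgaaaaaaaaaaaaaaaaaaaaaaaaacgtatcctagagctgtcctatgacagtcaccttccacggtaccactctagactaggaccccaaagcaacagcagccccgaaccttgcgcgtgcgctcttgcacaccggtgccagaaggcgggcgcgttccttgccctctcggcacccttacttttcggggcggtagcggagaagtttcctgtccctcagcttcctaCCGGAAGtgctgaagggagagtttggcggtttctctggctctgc
Cnot10: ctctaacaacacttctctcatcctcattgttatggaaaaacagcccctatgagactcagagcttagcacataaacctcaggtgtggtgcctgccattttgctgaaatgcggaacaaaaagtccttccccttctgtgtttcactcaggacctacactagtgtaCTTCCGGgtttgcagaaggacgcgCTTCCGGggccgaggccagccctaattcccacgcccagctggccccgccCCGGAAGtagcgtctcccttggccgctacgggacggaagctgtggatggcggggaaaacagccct
Cnot4: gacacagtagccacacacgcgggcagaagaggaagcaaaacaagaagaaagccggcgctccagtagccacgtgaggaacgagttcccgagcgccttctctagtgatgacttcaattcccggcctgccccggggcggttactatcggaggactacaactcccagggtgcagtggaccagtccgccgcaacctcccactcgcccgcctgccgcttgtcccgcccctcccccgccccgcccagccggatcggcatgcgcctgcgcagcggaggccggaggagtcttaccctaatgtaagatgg
Med26: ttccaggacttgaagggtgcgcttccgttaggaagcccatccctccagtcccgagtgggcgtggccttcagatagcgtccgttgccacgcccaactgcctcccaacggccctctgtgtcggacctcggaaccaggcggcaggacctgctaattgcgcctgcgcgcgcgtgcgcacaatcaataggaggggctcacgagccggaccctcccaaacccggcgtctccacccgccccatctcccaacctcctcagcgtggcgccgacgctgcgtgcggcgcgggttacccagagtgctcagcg
Cnot9: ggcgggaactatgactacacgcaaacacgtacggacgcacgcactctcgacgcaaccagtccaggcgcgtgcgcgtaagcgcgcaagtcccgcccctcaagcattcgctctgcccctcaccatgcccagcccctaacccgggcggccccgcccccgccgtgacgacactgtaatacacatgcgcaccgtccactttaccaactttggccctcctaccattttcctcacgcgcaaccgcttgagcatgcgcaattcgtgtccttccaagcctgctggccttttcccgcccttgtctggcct

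These windows are chr4:132463872-132464171 for Med18, chr9:114640151-114640450 for Cnot10, chr6:35133688-35133987 for Cnot4 and chr8:72548261-72548560 for Med26, all on the minus strand. The Cnot9 window is chr1:74505810-74506109 on the plus strand. The Cnot10 window held 3 matches of CCGGAAG, whose first bases lay at −88, −64 and −15 from the gene start, counted as +1. The first 2 of these are on the strand opposite to the gene. The Med18 window held 1 match at +7, and the Cnot4, Med26 and Cnot9 windows held 0. The Cnot4 window takes in 183 of the 316 bp of its STAT3 peak, and the rest was not searched. The highest points of that peak and of the Cnot10 GABPa peak lie outside the windows. All 4 matches at Med18 and Cnot10 lay inside both the STAT3 and the GABPa peak of their gene. The GABPa peaks cover all 300 bases of these windows, so any match there had to lie inside them. The STAT3 peaks cover 248 bases at Med18 and 254 at Cnot10, so this placement is no evidence of binding at the matches.

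Med18 is a head subunit that pairs with Med20. Its STAT3 peak (chr4:132463797-132464119) had 42 tags, a score of 113, a fold of 18.6 and rank 277 of 885, with its centre at −37 bp. The score is a rescaled negative logarithm of the p-value of each peak and the fold its enrichment over background, both being the authors' own values. The GABPa peak of Med18 in lin-CD34- cells (chr4:132463346-132465431) was 2086 bp wide with 48 tags, a fold of 19.1 and rank 319 of 2525. Its highest point lay at −205 bp and its centre at −467 bp. It covered the whole STAT3 peak, and the 650 bp ATAC interval at +66 bp covered the STAT3 peak too. Both factor peaks were the strongest by tags among those of their factor at the 38 genes.

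Cnot10 is a subunit held with Cnot11 at the amino end of the scaffold Cnot1, and it was the one gene of the 38 with peaks of all 3 factors. Its STAT3 peak (chr9:114640144-114640404) had 23 tags, a fold of 19.2 and rank 609 of 885, the lowest STAT3 tag count among these genes. The GABPa peak (chr9:114639586-114640975) had 26 tags, a fold of 22.6 and rank 358 of 2525. It covered all 261 bp of the STAT3 peak, of which 81.6% also lay in a 751 bp ATAC interval. The SOX4 peak was elsewhere, in intron 12 of 19 (chr9:114612101-114612236), 28032 bp from the TSS with 9 tags and a fold of 15.1. That site overlapped no ATAC interval, the nearest being 2418 bp away.

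Cnot4 encodes a RING ubiquitin ligase of the complex. Its STAT3 peak (chr6:35133805-35134120) had 34 tags, a fold of 24.7 and rank 167 of 885, the best rank among the subunit genes. It lay at −225 bp, entirely inside an 896 bp ATAC interval. The RefSeq start of a noncoding gene, Gm33046, lies 13 bp from that of Cnot4 on the opposite strand, so the peak cannot be given to a single promoter. A SOX4 peak in intron 1 of 10 of Cnot4 (chr6:35116606-35116770) had 13 tags, a fold of 12.2 and lay in a B1F2 SINE repeat.

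Med26, a middle subunit that docks elongation factors, had a STAT3 peak of 37 tags with a fold of 21.9 and rank 203 of 885 (chr8:72548219-72548637). It lay at −118 bp inside an 828 bp ATAC interval. No SOX4 or GABPa peak was assigned to Med26. Cnot8, a deadenylase of the CAF1 type, had a STAT3 peak farther upstream, at −1415 bp (chr11:58102609-58102868), with 26 tags. Its fold of 34.6 was the highest among the STAT3 peaks at these genes, and 72.7% of it lay in an ATAC interval. RefSeq also gives Cnot8 an earlier start, and the peak lies between the starts, inside the RefSeq gene.

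A pair of further STAT3 sites lay at subunit promoters without being counted above. Cnot9, the armadillo-repeat subunit that binds GW182 proteins, had a STAT3 peak at −111 bp under its older symbol (chr1:74505742-74506157), with 34 tags, a fold of 29.7 and rank 281 of 885. Its promoter is shared with Usp37, whose start is 239 bp away on the opposite strand. At Med14, the Mediator scaffold, a STAT3 peak of 37 tags and a fold of 22.6 (chrX:12762160-12762521, rank 286 of 885) was assigned to Gm14634, whose start is 305 bp away on the opposite strand. The authors' annotation of that same peak names the Med14 promoter, and all 362 bp of it lay in open chromatin. It overlaps the Med14 window at its upstream end, where a CCGGAAG match begins at −225.

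**Figure D2:**
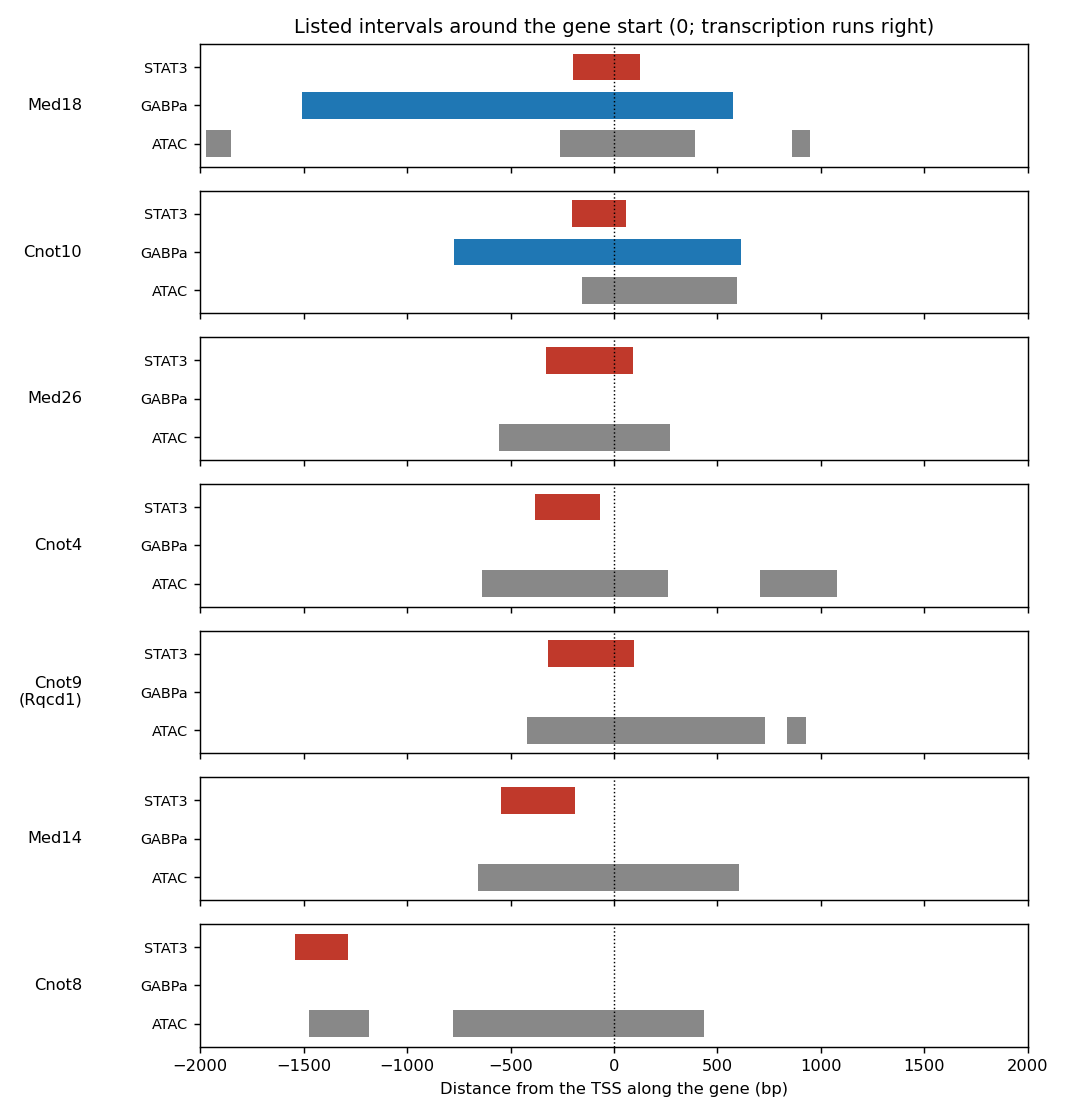
Bars span the STAT3 (lin-CD34+), GABPa (lin-CD34-) and ATAC (lin-CD34+) intervals around the start of 7 subunit genes; the horizontal axis is the distance in bp from the TSS along the gene. The STAT3 bars of Med18 and Cnot10 sit inside wider GABPa bars, the bars of Med26, Cnot4, Cnot9 and Med14 have no GABPa bar, and that of Cnot8 lies at −1544 to −1285 bp.

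Counted by position rather than by assigned gene, the RefSeq promoter windows of 6 of 35 subunit genes (17.1%) met a STAT3 peak. Over all 26992 genes with such a window the share was 1.37%. That reference takes in genes not named in the lists, so it differs from the 20691 genes used above. The 6 subunit genes are named next. These were Med14, Med18, Med26, Cnot4, Cnot9 and Cnot10. Of the 35 genes 2 had a window that met a GABPa peak (Med18 and Cnot10), against 1.01%, and 0 one that met a SOX4 peak, against 0.107%. The genes are spread over different chromosomes, so each STAT3 site is a separate locus.

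The remaining GABPa peaks were unlike the promoter pair. Cnot11, partner of Cnot10, had one at −3833 bp (chr1:39531372-39532567) with 13 tags, in a B2 SINE. Med30, a subunit found in metazoans and not in yeast, had one at −3105 bp (chr15:52708997-52709684) with 13 tags, in a LINE-1 element. Med25, a tail subunit known as the target of the viral activator VP16, had one at 2343 bp in intron 3 of 17 (chr7:44889595-44890451) with 19 tags, in a B3 SINE. All 3 lay in annotated repeats outside ATAC intervals, with folds of 10.8 to 12.4, against 19.1 and 22.6 at the promoter pair. Over the whole GABPa list 50.1% of peaks lay in repeats and 16.8% overlapped an ATAC interval. Repeats occur in similar copies, and how surely the reads of these 3 peaks were placed was not tested. The same holds for the SOX4 peak in a repeat at Cnot4. GABPa peaks at any distance were assigned to 13.2% of the subunit genes (4.41 to 28.1), against 9.59% of all genes, a share near that of all genes.

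SOX4 peaks were assigned to no Mediator gene and to several CCR4-NOT genes, all away from promoters. The counts were 0 of 28 Mediator genes and 4 of 10 CCR4-NOT genes (40%, 12.2 to 73.8), these being Cnot4, Cnot6, Cnot7 and Cnot10. Over the 38 genes this was 10.5% (2.94 to 24.8), against 12.5% of all genes, so the joint share was close to that of all genes. Median gene length was 16964 bp for Mediator and 48126 bp for CCR4-NOT. Summed length was 1313394 bp for Mediator and 563890 bp for CCR4-NOT, and includes stretches whose peaks were assigned to other genes. The part of length in this split was not tested.

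Cnot6 encodes a deadenylase of the CCR4 type and had a pair of SOX4 peaks. The peak at −3274 bp (chr11:49715918-49716075) had 10 tags and a fold of 13.6, and that in intron 2 of 11 (chr11:49695790-49695920) had 8 tags, the smallest count in the SOX4 list. The peak assigned to Cnot7, a deadenylase of the CAF1 type, had 9 tags and a fold of 16.3 (chr8:40483874-40484051). It lies outside Cnot7, in the 3′ UTR of the neighbouring gene Zdhhc2, 27792 bp from the assigned TSS. A further SOX4 peak (chr2:29464413-29464594) lay inside the RefSeq span of the Mediator gene Med27 but was assigned to Mir133c. None of the 5 assigned SOX4 peaks overlapped an ATAC interval, with gaps of 2418 to 16274 bp to the nearest one. In the whole SOX4 list 5.4% of peaks were open.

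The median tag counts behind these peaks were near those of their lists for STAT3 and SOX4, and higher for GABPa. STAT3 peaks at subunit genes had 23 to 42 tags (median 34), against a median of 30 in the whole list. SOX4 peaks had 8 to 13 (median 9), against 10, and GABPa peaks 13 to 48 (median 19), against 14. The median fold of the GABPa peaks was 12.4, against 12.2 in the list, and their median width 1196 bp, against 1021 bp. The GABPa peaks of Med18 and Cnot10, with 48 and 26 tags, ranked 319 and 358 of 2525 by score. The authors' false discovery rates were 1.62 to 2.42% for the STAT3, 1.01 to 2.29% for the SOX4 and 0.1 to 0.37% for the GABPa peaks of these genes. Of the 15 peaks 7 overlapped an ATAC interval: 5 of 5 for STAT3, against 78.4% of its list, 2 of 5 for GABPa, against 16.8%, and 0 of 5 for SOX4, against 5.4%. With 5 peaks a factor, these counts do not set the genes apart from the lists.

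**Figure D3:**
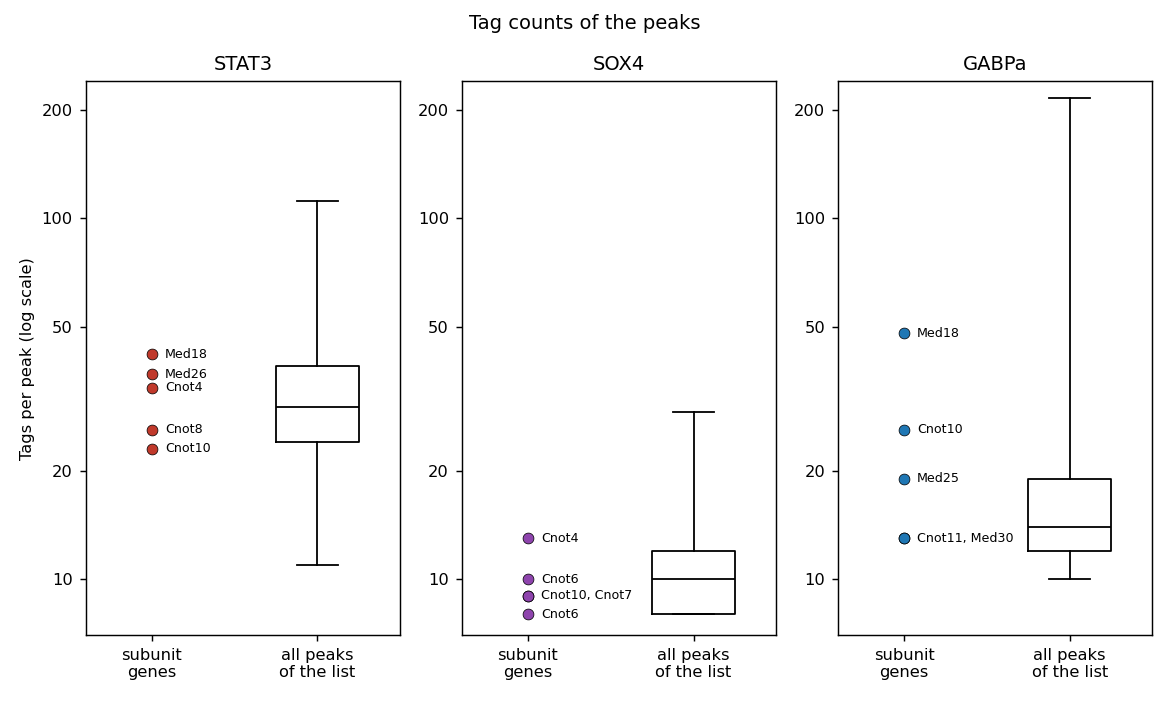
Tags per peak on a log scale, for the named peaks of subunit genes (points, left) and for all peaks of the same list (right; box from the first to the third quartile with the median, whiskers to the extremes). The STAT3 points lie between 23 and 42 around the list median of 30, the SOX4 points between 8 and 13, and the GABPa points of Med18 and Cnot10 at 48 and 26, above the list median of 14.

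Open chromatin in lin-CD34+ cells lay at nearly every subunit promoter. An ATAC interval was listed within 1000 bp of the TSS for 37 of 38 genes (97.4%, 86.2 to 99.9), against 68.2% of all genes. All 10 CCR4-NOT genes and 27 of 28 Mediator genes had one. The exception, the tail gene Med29, had 1 interval of 190 bp at 5972 bp from the TSS. By position, however, the Med29 window lay wholly inside a 999 bp ATAC interval assigned to Paf1, an elongation factor gene whose start is 306 bp away on the opposite strand. Med31, a middle subunit gene, was much alike, and its own interval was 79 bp wide at −859 bp. A 1020 bp interval assigned to 4930563E22Rik covered 272 of the 300 bases of its window. Med19 and Med20 also had open windows, inside intervals of 770 and 1035 bp assigned to Tmx2 and Bysl.

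Counted by position, 32 of 35 subunit genes with a RefSeq window had a window that met an ATAC interval, against 37.6% of 26992 genes. That reference takes in genes not named in the lists, so it cannot be set beside the 68.2% above. Subunit genes without such a window are described next. The 3 that did not were Med12l, Med13 and Med13l, of the 4 kinase module genes that hold the Cdk8 kinase to Mediator. The fourth, Med12, was open over 248 of the 300 bases. Med13 and Med13l had 3 promoter intervals each on either side of the start, the nearest centred at 242 and 155 bp, and Med12l a single 73 bp interval at 432 bp. These genes thus had listed intervals within 1000 bp but none in the 300 bases of the window. At Med13l the window ended at chr5:118560768 and the nearest interval began at chr5:118560774, so its absence rests on the window's edge.

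The width of the widest promoter interval varied among the genes. It ranged from 73 to 1366 bp with a median of 697 bp over the 37 genes, against 559 bp over the 14107 genes with such an interval. The widest were at Med21 (1366 bp), a middle subunit gene, the scaffold gene Med14 (1262 bp), the head gene Med22 (1240 bp) and Cnot3 (1214 bp) and Cnot8 (1213 bp). Med22 shares its promoter with the ribosomal protein gene Rpl7a, 165 bp away, and Cnot3 with Gm15927, 166 bp away, both on the opposite strand. The narrowest were at Med12l (73 bp), Med31 (79 bp), Med13l (440 bp) and Cnot7 (482 bp). At Cnot7 a separate interval assigned to the neighbouring gene Vps37a (chr8:40511432-40512422) lay inside the RefSeq gene. It covers the TSS from which the Cnot7 promoter distance is counted, so 482 bp is not the full open width at that start. The list often repeats an interval in several entries without saying why, and the widest promoter interval stood in 8 entries at Med14 and Med16 and in 1 at Med12l and Med31. Mediator genes had a median of 680 bp and CCR4-NOT genes 824 bp, a difference for which there is no replicate check.

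**Figure D4:**
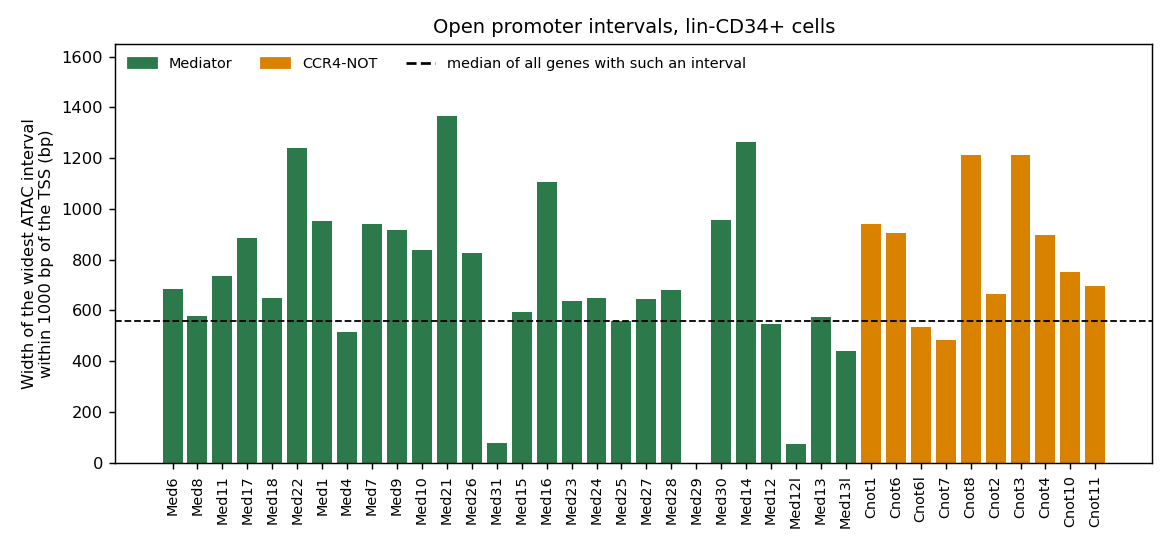
Bars give the width in bp of the widest ATAC interval within 1000 bp of the TSS for each gene, Mediator in green and CCR4-NOT in orange; the dashed line is the median over all genes with such an interval, 559 bp. Bars reach 1366 bp at Med21, while Med12l and Med31 stay under 80 bp and Med29 has none.

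Away from promoters the ATAC intervals were unevenly divided. Of the 223 distinct intervals 54 were within 1000 bp of a TSS and 169 farther away, and of these 138 were intronic by the authors' annotation. The median was 3 intervals a gene, against 4 over all genes. The 6 genes with 10 or more held 128 of them. Med13l, a kinase module paralogue, had 62, Med27 had 21, Cnot6l and Med28 had 12 each, Med26 had 11 and Cnot2 had 10. At the other end 9 genes had 1 interval each: Med8, Med12, Med14, Med22, Med29, Med31, Cnot3, Cnot6 and Cnot11.

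Gene length moved with these counts: the Spearman correlation of interval number with RefSeq gene length was 0.55 over the 38 genes and 0.52 over 19531 genes, a description across genes that share 1 library. Some genes stood off that relation. Med14 spans 87227 bp with 1 interval, that of its promoter. Med28 spans 9056 bp with 12, of which 9 lay outside the gene. Med12l is the longest, with 313028 bp and 5 assigned intervals, but 32 further intervals inside it were assigned to other genes, among them Gpr171, P2ry12, P2ry13 and P2ry14. The 17 intervals inside Med27 that were assigned to Mir133c show the same effect of assignment by nearest TSS. Med13l held 60 of its 62 intervals within the gene. The widest of the 62 was an intergenic interval of 841 bp at −4187 bp (chr5:118556112-118556952), followed by an intronic one of 769 bp at 129059 bp from the TSS (chr5:118689394-118690162). Another 3 intronic intervals of Med13l were 638, 522 and 429 bp wide, at 76120, 13844 and 52655 bp from the TSS.

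**Figure D5:**
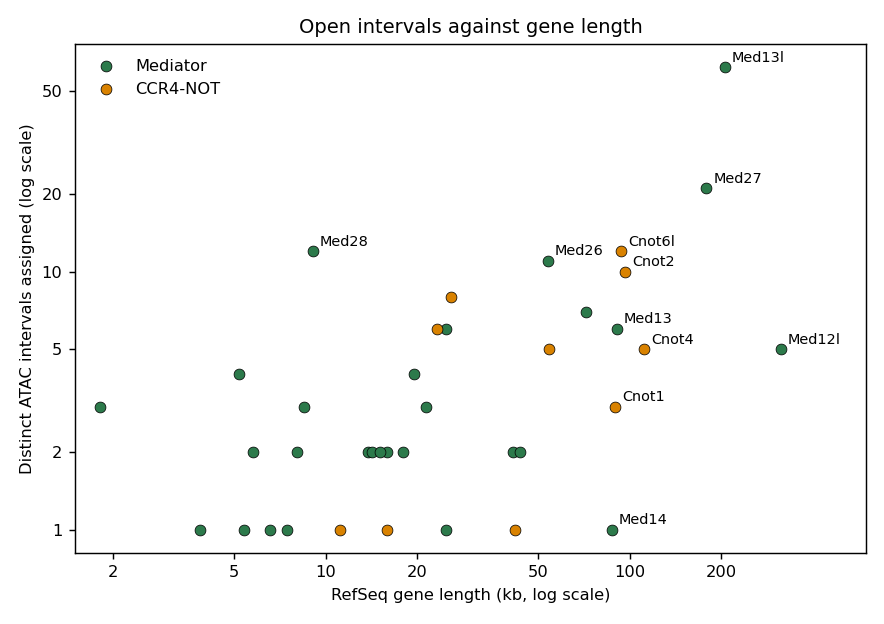
Distinct ATAC intervals assigned to each gene (vertical, log scale) against its RefSeq length in kb (horizontal, log scale), Mediator in green and CCR4-NOT in orange. Med13l with 62 and Med27 with 21 intervals top the long genes, Med12l, the longest gene, holds 5, Med14 holds 1, and Med28 has 12 in a short gene.

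Promoter sequence gave a further description that the choice of genes did not use. RefSeq windows were found for 32 of the 38 genes. Their median GC content was 61%, against 52.7% over all windows, and their median number of CG pairs was 22, against 7. All windows here include those of genes not named in the lists. CCGGAAG on either strand was present at 10 of the 32 genes (31.2%), against 9.93% of 27025 genes with a window and 16.7% of 10480 genes with a window and an ATAC promoter interval. The 10 were Med4, Med6, Med10, Med14, Med15, Med17, Med18, Cnot6l, Cnot10 and Cnot11. Of these Med18 and Cnot10 had a GABPa promoter peak. Med10 held 3 matches, at −31, −28 and −21, the first of which overlaps the second, without a listed GABPa peak. Among genes with a GABPa promoter peak 36.7% of 229 held the motif, and among those with a STAT3 promoter peak 37.3% of 316.

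The STAT motif TTCNNNGAA was present at 4 of the 32 genes (12.5%), against 9.55% of all genes with a window. These were Med29, Med31, Cnot2 and Cnot6, and none of them had a STAT3 peak. None of the 5 windows printed above holds TTCNNNGAA, which says only that those letters are not in these 300 bases. Among genes with a STAT3 promoter peak 10.8% held it, near the 9.55% of all genes with a window. The SOX motif ACAAAG was present at Med27 alone (3.12%), against 21% of all genes with a window. Both motifs were searched on both strands, TTCNNNGAA being its own reverse complement.

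Genes that work with the complexes but were outside the naming rule were mostly open at the promoter, and a few had a factor peak there. Of 40 such genes, Cnot9 as Rqcd1 included, 38 were named in the lists, and 35 of the 38 had an ATAC promoter interval, against 68.2% of all genes. A factor promoter peak was listed for 3 of them. STAT3 peaks lay at Polr2h and Rqcd1, against 1.98% of all genes, and GABPa peaks at Polr2h and Tnrc6a, against 1.54%. For either factor this was 1 of 11 RNA polymerase II genes (9.09%) and 1 of 24 deadenylation and decay genes (4.17%). It was 0 of 3 kinase partners, and each share rests on at most 1 gene. Without Rqcd1, itself a CCR4-NOT subunit gene, Polr2h was the single STAT3 gene among the partner genes. Cdk8, Cdk19 and Ccnc, the kinases and cyclin of the kinase module, had open promoters and no factor peak. Of 11 RNA polymerase II subunit genes 9 had open promoters, with Polr2b and Polr2i the exceptions. Polr2h had both a STAT3 peak of 26 tags at 15 bp and a GABPa peak of 22 tags at 91 bp, both in open chromatin, as at Med18 and Cnot10. Of 24 deadenylation and decay genes 23 had open promoters, Tnks1bp1 being the exception. Rqcd1 (Cnot9) had the STAT3 peak given above, and Tnrc6a, a GW182 protein gene that recruits CCR4-NOT to microRNA targets, had a GABPa peak of 28 tags at 477 bp.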

How the data were processed

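Peak lists of 4 libraries were used, 1 per group, on build mm10. Tools in the submitters' processing notes are Bowtie2, CASAVA 1.7, HOMER, MACS2, Picard and SAMtools, without roles. Per the file headers, the deposited tag counts are whole tags per peak. The score the authors deposited is a rescaled negative logarithm of a p-value, their fold is a ratio over the caller's background, and their false discovery rate is in percent. No source used here gives library totals or caller settings. The ATAC list has no score, and repeated entries of an interval were counted once. The lists hold no peak more than 5000 bp upstream of a TSS, so sites farther upstream were not analysed here.

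Promoter means within 1000 bp of the nearest TSS by the authors' distance column, and overlap means at least 1 bp. Gene spans, promoter sequences and neighbours are from RefSeq (GRCm38.p6), and all 38 genes matched by symbol. The genes, roles and lists were chosen with earlier results of these data known. Named were all genes with a factor peak, those without an open promoter, and the 5 with the most and the 5 with the fewest ATAC intervals. Of partner genes, those with a factor promoter peak or no open promoter were named. Any other gene was named with its values in view. Motif and overlap steps were tested on simulated data. Python 3.11.15 was used with matplotlib 3.10.9, scipy 1.17.1, pandas 2.3.3 and numpy 2.4.6. Alternatives covered the promoter window, score, repeats, overlap rule, entries and gene symbols.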

Additional observations from a re-analysis of the deposited data

How the results depend on the processing

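Of 36 alternative values, 4 moved beyond the margin, which for counts was 1.5 times. With a promoter window of 5000 bp, 1 gene had a SOX4 promoter peak in place of 0, and 5 genes a GABPa promoter peak in place of 2. The wider window takes in the upstream Cnot6 peak and the 3 repeat peaks at Cnot11, Med25 and Med30. With peaks in annotated repeats left out, 2 genes in place of 5 had a GABPa peak at any distance. With repeated entries counted, the median number of ATAC intervals a gene was 7 in place of 3. The share of genes with an open promoter was 3.57 percentage points lower for Mediator than for CCR4-NOT, and 2.86 points higher with a window of 500 bp, where 35 of 38 genes were open. Counting Rqcd1 as Cnot9, an alternative chosen after seeing the data, gave 5 genes with a STAT3 promoter peak in place of 4. No paired analysis was possible because each group had 1 library, and none could be left out. The SOX4 peaks of these genes rest on 8 to 13 tags each, and library totals are unknown.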
